A study of Mus musculus with 12 samples.

Results

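Igfbp4, Myb, Greb1, Gper1, Cxcl12 and Nrip1 are 6 genes known to respond to estrogen or to sense it, and their levels were followed in mouse embryonic stem (ES) cells exposed to 2 agents during differentiation. They were found by symbol in the gene table of the array platform, which named 18193 genes in all. The array held 24 probe sets for them (6 for Igfbp4, 3 for Myb, 4 for Greb1, 2 for Gper1, 3 for Cxcl12 and 6 for Nrip1), and each gene was represented by the probe set with the highest mean over the 12 arrays. Of these probe sets, 17 passed the filter on low values, which left the brightest 60% of all probe sets, and 5 of the 6 genes were among the 13067 genes tested. Gper1 did not pass and is described without a test.

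RNA abundance was measured on 12 Affymetrix arrays of the D3 mouse ES cell line, in 4 groups of 3 arrays: BPA day8, NP day8, control day8 and control day0. The day8 groups were cells differentiated through embryoid bodies with the agent BPA, with the agent NP or with no agent, and control day0 was ES cells at day 0 with no agent. The cells of the study were grown on mouse embryonic fibroblast feeder cells treated with MMC, and only this 1 cell line was used. No dose is stated in the labels, nor are BPA and NP spelled out. They also leave unsaid whether the arrays of a group came from separate cultures, so every p-value measures only the spread between these arrays.

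Estrogens act mainly through nuclear receptors, ESR1 and ESR2, that bind the hormone and then DNA, often at an inverted repeat called the estrogen response element, and recruit coactivators or corepressors. A faster membrane response is attributed to the G protein-coupled receptor GPER1. In human breast cancer cells GREB1, NRIP1, CXCL12, MYB and IGFBP4 are known to be induced by estradiol. The comparisons describe whether these genes changed with BPA or NP in differentiating ES cells. No group is labelled with estradiol or with a blocker of a receptor, so whether a change ran through an estrogen receptor was not tested.

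To show what the genes carry at their starts, promoter windows from RefSeq for the mouse assembly GRCm38.p6 were searched for short motifs on both strands. Each window spans 250 bases before to 50 bases after an annotated transcription start, and the 6 genes had 8 windows, since Greb1 and Nrip1 had 2 each. The full estrogen response element, GGTCANNNTGACC, was in 0 of the 8 windows and in 0.07% of all 32851 windows of this length. Its shorter part, GGTCA, was in 3 of the 8 windows and in 40.5% of all windows, so it is a common run of letters. These 3 windows, of Greb1 and Nrip1, are shown because they hold a match. The windows without a match, the second of Nrip1 among them, are not shown. Each is written 5′ to 3′ on the strand of its gene, with GGTCA or its reverse complement TGACC in capitals.

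Greb1, first window, chr12:16800837-16801136, minus strand: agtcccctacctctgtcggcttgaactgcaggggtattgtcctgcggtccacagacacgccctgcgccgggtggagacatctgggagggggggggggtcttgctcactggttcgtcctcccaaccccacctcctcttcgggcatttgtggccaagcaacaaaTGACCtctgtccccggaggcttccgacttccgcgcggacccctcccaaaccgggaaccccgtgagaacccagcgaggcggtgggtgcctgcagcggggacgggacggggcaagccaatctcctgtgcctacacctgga

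Greb1, second window, chr12:16757190-16757489, minus strand: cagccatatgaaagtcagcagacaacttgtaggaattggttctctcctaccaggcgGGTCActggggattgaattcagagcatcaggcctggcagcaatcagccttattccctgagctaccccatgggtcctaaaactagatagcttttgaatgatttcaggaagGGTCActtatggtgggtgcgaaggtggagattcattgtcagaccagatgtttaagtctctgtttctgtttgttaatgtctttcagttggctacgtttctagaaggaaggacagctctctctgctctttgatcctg

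Nrip1, first window, chr16:76373778-76374077, minus strand: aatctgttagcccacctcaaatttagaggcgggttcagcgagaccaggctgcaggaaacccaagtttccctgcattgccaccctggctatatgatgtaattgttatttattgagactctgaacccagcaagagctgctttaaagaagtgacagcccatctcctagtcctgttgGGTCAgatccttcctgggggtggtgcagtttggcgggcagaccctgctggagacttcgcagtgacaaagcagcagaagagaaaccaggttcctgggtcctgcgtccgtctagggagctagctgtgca

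Counted in bases from the start, with negative positions before it, the match was at -88 in the first Greb1 window and at -77 in the Nrip1 window. In the second Greb1 window the 2 matches were at -194 and -85. The GC box GGGCGG was in 4 of the 8 windows, from Myb, Gper1, Cxcl12 and the second start of Nrip1, and in 35.7% of all windows. The AP-1 motif TGANTCA was in 0 of the 8 windows and in 7.81% of all. A match is a description of the letters only, and a missing match says only that these letters are not in that window.

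All levels below are log2 signals, and a change is a difference of group means with its standard error. The fit was made with limma across all genes on all 12 arrays, and a gene is said to have risen or fallen where its Benjamini-Hochberg adjusted p was under 0.05. Each array held 58.3% to 62.3% of its probe sets above a background of 3.41, the highest value among the 3 probe sets for the bacterial control transcript TrpnX. The 8 pluripotency markers, led by Tdgf1, Pou5f1 and Zfp42, all rose with BPA and with NP relative to control day8 and fell in control day8 relative to control day0. Their summed signals were 20001 to 20884 in BPA day8, 16466 to 21958 in NP day8, 3396 to 6932 in control day8 and 28003 to 28713 in control day0. Of the 9 fibroblast markers, 7 fell with each agent relative to control day8, led by Postn, Col3a1 and Lum, and their summed signals were 681 to 863 in BPA day8, 533 to 883 in NP day8, 5946 to 8922 in control day8 and 5919 to 7510 in control day0, with 0 of the 9 markers at background on all 3 arrays of any group. The part of either cell population in the levels of the 6 genes was not tested, and in these bulk samples fewer cells of a type and less RNA per cell cannot be told apart.

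With BPA, 3 of the 5 tested genes fell relative to control day8 (Igfbp4, Greb1 and Cxcl12) and 1 rose (Myb). Of all genes tested, 10.2% fell and 12% rose in this comparison, and 22.2% were called in all. With NP, the same 3 genes fell and Myb rose, against 6.28% of all genes that fell, 7.9% that rose and 14.2% that were called in all. The median change of the 5 genes was -1.86 with BPA and -1.28 with NP, and that of all genes was 0.04 and 0.01. Both comparisons share the 3 control day8 arrays, so the like outcome of the 2 agents is not independent. During differentiation without an agent, 3 of the 5 genes rose in control day8 over control day0 (Igfbp4, Greb1 and Nrip1) and Myb fell, where 28.3% of all genes rose, 20.5% fell and 48.7% were called. The same shares of all genes apply to the counts of every gene list in these comparisons. The arrays of the groups compared lay fully apart for all 5 genes with BPA (41.6% of all genes), for 4 with NP (34.8%) and for 4 between the control days (56.8%), but for 0 between NP day8 and BPA day8 (17%). Between NP day8 and BPA day8, 0 of the 5 genes were called, where 0.00765% of all genes were called, which was 1 gene. It was Tgfb3, a growth factor (3.14 ± 0.33, adjusted p = 0.0425), named here after its values were seen.

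**Figure D1:**
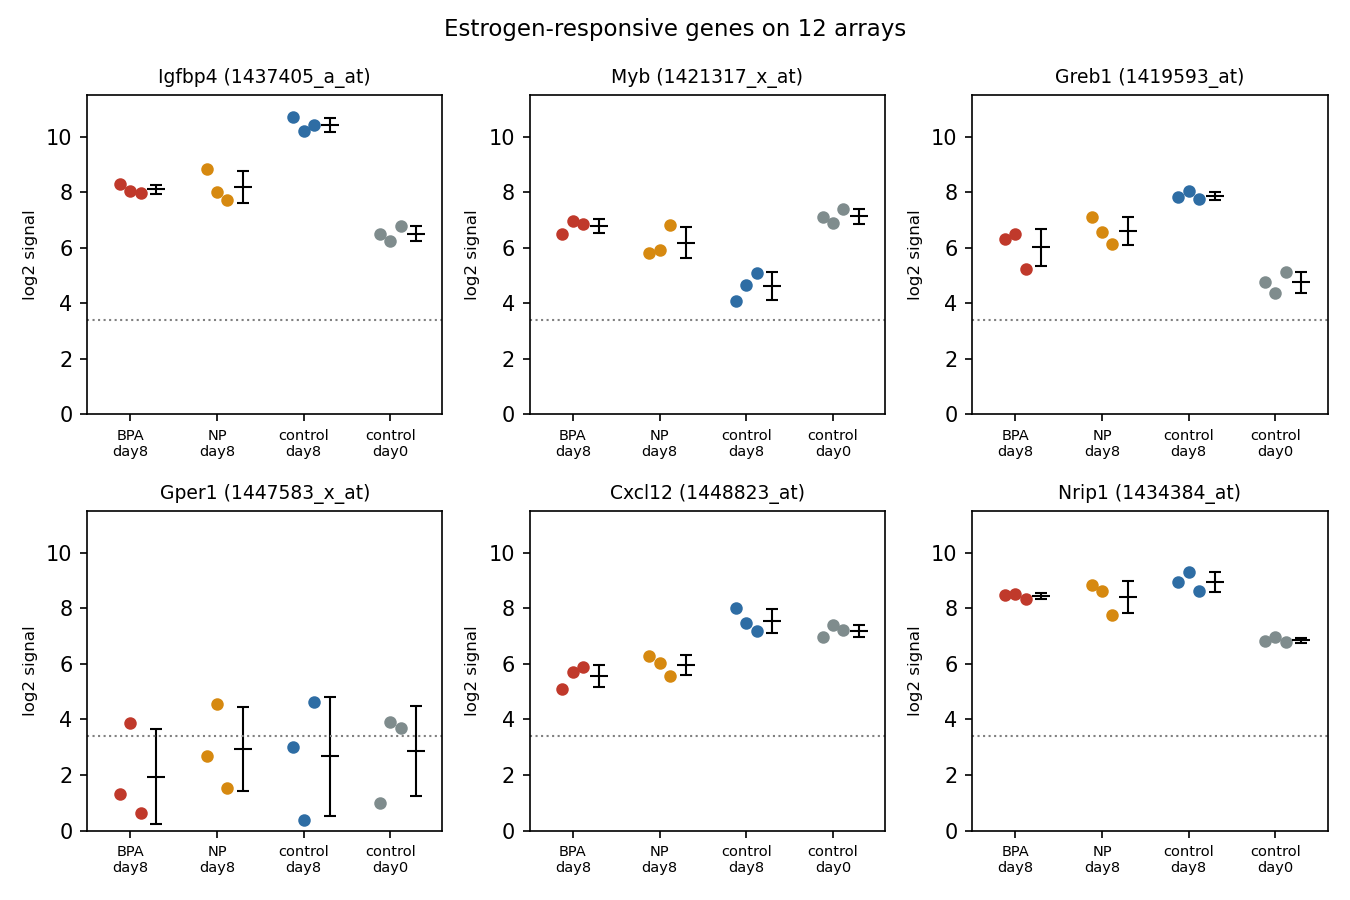
Log2 signal of the 6 genes on each array, with a panel per gene showing its probe set with the highest mean. Points are arrays, the black mark is the group mean with its SD (n = 3), and the dotted line is the background of 3.41. Igfbp4, Greb1 and Cxcl12 are lower and Myb is higher in BPA day8 and NP day8 than in control day8, while Gper1 lies on both sides of the background in every group.

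**Figure D2:**
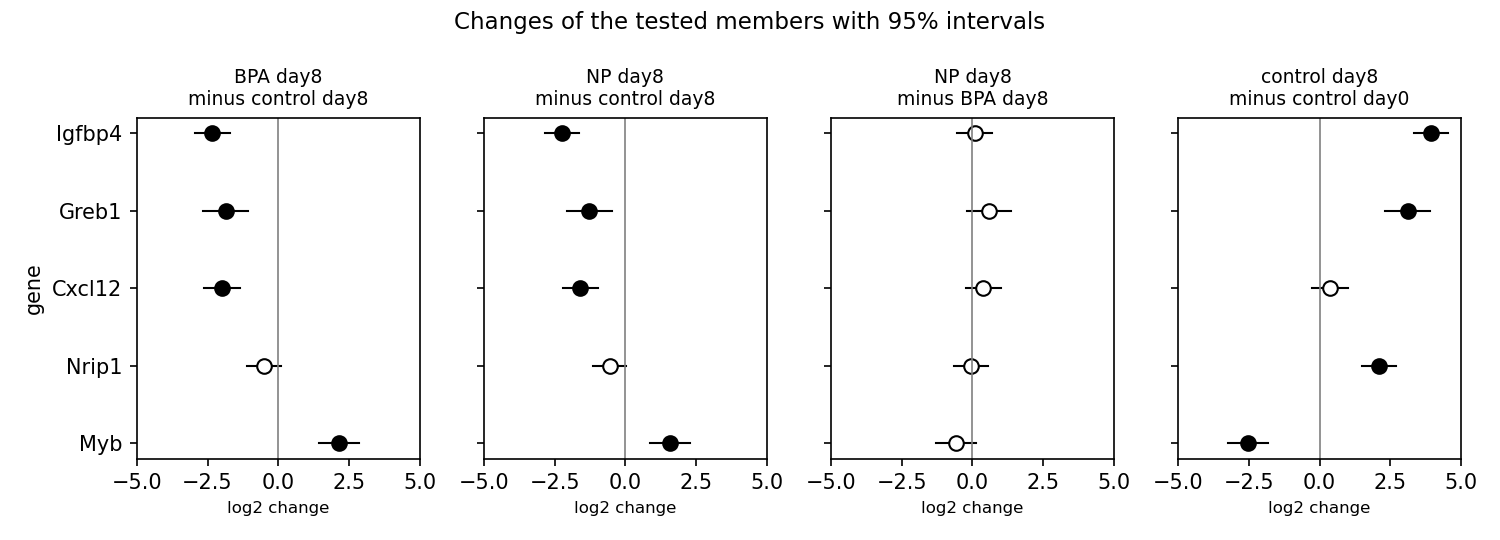
Log2 change of the 5 tested genes in 4 comparisons, with 95% intervals from limma. Filled points have an adjusted p under 0.05 over all genes tested. Igfbp4, Greb1 and Cxcl12 lie left of 0 and Myb right of 0 in both comparisons of an agent with control day8, and all intervals of NP day8 minus BPA day8 cross 0.

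Igfbp4 encodes a secreted protein that binds insulin-like growth factors and keeps them from their receptor. Its levels were 8.29, 8.06 and 7.97 in BPA day8, 8.82, 8 and 7.72 in NP day8, 10.7, 10.19 and 10.41 in control day8, and 6.48, 6.24 and 6.78 in control day0. Every array with an agent lay below every control day8 array and above every control day0 array. With BPA Igfbp4 fell by 2.33 ± 0.27 on the log2 scale, a 5.02-fold lower signal (adjusted p = 0.000655). With NP it fell by 2.25 ± 0.27, a 4.76-fold lower signal (adjusted p = 0.00138). In control day8 it was 15.3-fold above control day0 (3.93 ± 0.27, adjusted p = 8.84e-06).

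The order of Igfbp4 was control day8, NP day8, BPA day8 and control day0, and all steps but the middle one passed the test. NP day8 and BPA day8 differed by 0.08 ± 0.27, with a 95% interval of -0.53 to 0.69 (adjusted p = 0.969). Against control day0, Igfbp4 rose by 1.61 in BPA day8 (adjusted p = 0.00191) and by 1.68 in NP day8 (adjusted p = 0.0016). Of its 6 probe sets, 5 passed the filter, and in a fit over probe sets all 5 fell with both agents, with changes of -1.87 to -3.6 for BPA and of -1.83 to -2.76 for NP. Against control day0 all 5 had positive changes, but not all passed. The second brightest gave 0.77 in BPA day8 (adjusted p = 0.204). The dimmest of the 5 gave 0.72 in BPA day8 (adjusted p = 0.0809) and 0.77 in NP day8 (adjusted p = 0.0677). The other changes of these probe sets against control day0 passed. The remaining probe set was at or under background on all 12 arrays. The suffix of a probe set matters here, since _s_at and _x_at sets can bind transcripts of other genes and _a_at sets bind several transcripts of 1 gene.

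Greb1 encodes a cofactor of the estrogen receptor whose induction in human breast cancer cells is a standard readout of estrogen. Greb1 stood at 6.31, 6.49 and 5.24 in BPA day8, 7.11, 6.55 and 6.13 in NP day8, 7.83, 8.03 and 7.76 in control day8, and 4.78, 4.36 and 5.11 in control day0. The control day8 arrays lay close together and above all 6 arrays with an agent, and BPA day8 replicate 3 lay nearest to control day0. It fell 3.62-fold with BPA (-1.86 ± 0.35, adjusted p = 0.00569). The decrease with NP was 2.42-fold (-1.28 ± 0.35, adjusted p = 0.0407) and depended on single arrays. It no longer passed without BPA day8 replicate 1 (adjusted p = 0.0533), control day0 replicate 1 (0.0574), control day8 replicate 1, 2 or 3 (0.103, 0.115 and 0.0664) or NP day8 replicate 2 or 3 (0.112 and 0.136), nor in 7 other settings, where the adjusted p was 0.0541 to 0.108.

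In control day8 Greb1 was 8.71-fold above control day0 (3.12 ± 0.35, adjusted p = 8.9e-05). Its order was control day8, NP day8, BPA day8 and control day0. NP day8 and BPA day8 differed by 0.58 ± 0.35, with an interval of -0.21 to 1.37 (adjusted p = 0.707). Against control day0, Greb1 rose by 1.85 in NP day8 (adjusted p = 0.0037). In BPA day8 it rose by 1.27 (adjusted p = 0.021), but without BPA day8 replicate 1 or 2, or control day0 replicate 1 or 2, that adjusted p was 0.0513 to 0.0736. In a fit of these groups alone it was 0.063. The second Greb1 probe set above background gave -1.46 with BPA (adjusted p = 0.0577) and -1 with NP (adjusted p = 0.223), both short of the threshold. Against control day0 that probe set gave 1.36 in BPA day8 (adjusted p = 0.0556) and 1.82 in NP day8 (adjusted p = 0.0179). Greb1l, a paralogue of Greb1, fell with BPA (-1.37 ± 0.29, adjusted p = 0.00977), and its change with NP was -0.91 (adjusted p = 0.0716).

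Cxcl12 encodes a chemokine that guides progenitor cells through its receptors CXCR4 and ACKR3. Its main probe set read 5.11, 5.72 and 5.88 in BPA day8, 6.29, 6.02 and 5.57 in NP day8, 8.01, 7.48 and 7.17 in control day8, and 6.97, 7.39 and 7.23 in control day0. All arrays with an agent lay below all control arrays of either day, and the 2 control groups overlapped. Cxcl12 fell 3.95-fold with BPA (-1.98 ± 0.28, adjusted p = 0.00147). It fell 3.02-fold with NP (-1.59 ± 0.28, adjusted p = 0.00691). Control day8 and control day0 differed by 0.36 ± 0.28, with an interval of -0.26 to 0.99 (adjusted p = 0.32), and NP day8 and BPA day8 by 0.39 ± 0.28, with an interval of -0.24 to 1.01 (adjusted p = 0.75).

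A second Cxcl12 probe set gave another picture of day 0. It read 5.43, 5.49 and 5.22 in BPA day8, 5.99, 5.61 and 5.71 in NP day8, 7.83, 7.54 and 6.94 in control day8, and 4.21, 4.64 and 4.67 in control day0. On this probe set control day0 was the lowest group, and none of the 4 groups overlapped another. In the fit over probe sets it fell with BPA (-2.06 ± 0.23, adjusted p = 0.000872) and with NP (-1.67 ± 0.23, adjusted p = 0.00338), as the main one did. Against control day0 the directions were opposite. In the fit over probe sets the main one fell by 1.62 in BPA day8 (adjusted p = 0.00305) and by 1.23 in NP day8 (adjusted p = 0.0115). In the fit over genes these adjusted p were 0.00208 and 0.00867. The second probe set rose by 0.87 in BPA day8 (adjusted p = 0.0209) and by 1.26 in NP day8 (adjusted p = 0.00407).

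In control day8 the second probe set was higher than in control day0 (2.93 ± 0.23, adjusted p = 2.38e-05). The change of Cxcl12 over differentiation therefore depended on the probe set, and the decrease with the agents did not. The third probe set was at or under background on 9 of 12 arrays. The summed fibroblast markers were low in BPA day8 and NP day8 and high in both control groups, as was the main Cxcl12 probe set, and the second probe set was not high in control day0. The single markers were mixed between the control days, where 4 of the 9 rose and 4 fell in control day8. S100a4 averaged 3.09 in control day8 and 10.21 in control day0, and Thy1 averaged 2.97 and 8.18, both under the background of 3.41 in control day8. The part of fibroblast RNA in either probe set was not tested.

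**Figure D3:**
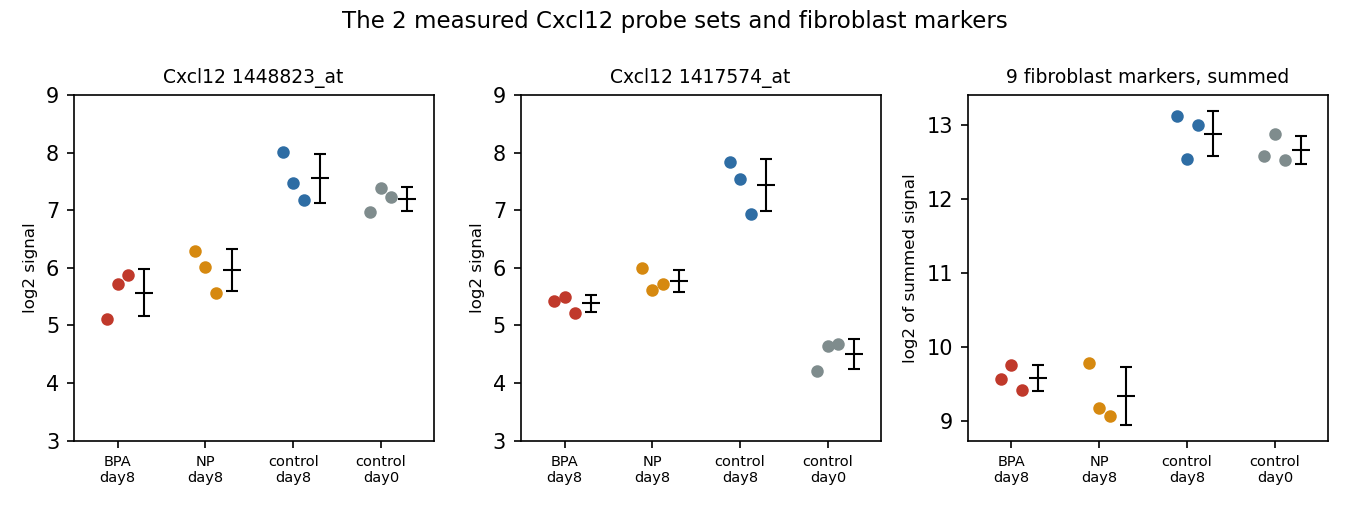
Log2 signal of the 2 Cxcl12 probe sets above background and the log2 of the summed signal of 9 fibroblast markers, by array. Points are arrays and the black mark is the mean with its SD (n = 3). Both probe sets are lower in BPA day8 and NP day8 than in control day8, while in control day0 the left one is near control day8 and the middle one is the lowest of the 4 groups.

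Of the CXCL12 receptors, Ackr3, which scavenges the chemokine, fell with BPA (-1.44 ± 0.2, adjusted p = 0.00137) and with NP (-1.83 ± 0.2, adjusted p = 0.00102). Cxcr4, the signalling receptor, gave -1.33 with BPA (adjusted p = 0.105) and -1.3 with NP (adjusted p = 0.143), which did not pass. Together with Dpp4, the protease that cleaves CXCL12, all 3 of these genes rose in control day8 over control day0, Dpp4 by 3.13, Ackr3 by 2.88 and Cxcr4 by 2.23 (adjusted p = 3.76e-05, 8.84e-06 and 0.0069). The list thus gave 0 rises and 1 fall of 3 tested with each agent, with median changes of -1.33 for BPA and -1.3 for NP.

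Nrip1 encodes RIP140, a corepressor that nuclear receptors recruit when they hold their ligand. Levels of Nrip1 were 8.47, 8.52 and 8.33 in BPA day8, 8.84, 8.61 and 7.75 in NP day8, 8.94, 9.32 and 8.61 in control day8, and 6.83, 6.96 and 6.78 in control day0. The 9 day8 arrays lay above all control day0 arrays, the BPA arrays lay just under control day8, and the NP arrays overlapped both. Nrip1 was 4.28-fold higher in control day8 than in control day0 (2.1 ± 0.27, adjusted p = 0.00018). Its difference from control day8 was -0.51 ± 0.27 with BPA (interval -1.11 to 0.08, adjusted p = 0.204) and -0.55 ± 0.27 with NP (interval -1.15 to 0.04, adjusted p = 0.203), neither past the threshold.

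NP day8 and BPA day8 differed in Nrip1 by -0.04 ± 0.27, with an interval of -0.64 to 0.55 (adjusted p = 0.985). It was above control day0 by 1.59 in BPA day8 (adjusted p = 0.00183) and by 1.54 in NP day8 (adjusted p = 0.00223). Of the other Nrip1 probe sets, the next brightest gave -0.64 with BPA (adjusted p = 0.0985) and -0.82 with NP (adjusted p = 0.0657). Only the probe set after it in brightness passed against control day8, as it fell with BPA (-1.03, adjusted p = 0.0367), and its change with NP was -0.83 (adjusted p = 0.111). Both rose in control day8 over control day0, by 1.93 and 1.99. A dimmer probe set, above background on 11 of 12 arrays, gave 0.2 with BPA and 0.54 with NP (adjusted p = 0.74 and 0.357). Another, at or under background on 5 of 12 arrays, gave 0.88 and 0.95 (adjusted p = 0.623 and 0.638).

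Myb encodes a transcription factor of immature blood cells and other progenitors. Myb was at 6.5, 6.97 and 6.85 in BPA day8, 5.82, 5.92 and 6.81 in NP day8, 4.09, 4.64 and 5.1 in control day8, and 7.11, 6.88 and 7.41 in control day0. Its order was the reverse of that of Igfbp4 and Greb1, with control day0 on top and control day8 lowest, and no array with an agent overlapped control day8. Myb rose 4.48-fold with BPA (2.16 ± 0.32, adjusted p = 0.00178). It rose 2.97-fold with NP (1.57 ± 0.32, adjusted p = 0.0121), a call that was lost in a fit of these 2 groups alone (adjusted p = 0.0706). In control day8 it was 5.75-fold below control day0 (-2.52 ± 0.32, adjusted p = 0.000167).

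BPA day8 and control day0 differed in Myb by -0.36 (adjusted p = 0.414), and NP day8 and BPA day8 by -0.59 ± 0.32, with an interval of -1.3 to 0.12 (adjusted p = 0.662), so neither pair of neighbours in the order was separated. NP day8 lay 0.95 below control day0 (-0.95, adjusted p = 0.044), a call lost in 9 of the fits that left out 1 array, all but those without control day8 replicate 1, control day8 replicate 3 or NP day8 replicate 3, with adjusted p up to 0.145. It was also lost with the mean of the Myb probe sets (-0.84, adjusted p = 0.0802) and with the probe set of largest spread (adjusted p = 0.101). With no filter on low values, in a fit of these groups alone and in the fit over all probe sets, the adjusted p was 0.0739, 0.0775 and 0.0544. The main probe set of Myb is of the _x_at kind, but its 2 _a_at probe sets had changes of the same sign. The brighter of these rose with BPA (2.23, adjusted p = 0.00641) and gave 1.45 with NP (adjusted p = 0.0573), and the dimmer rose with BPA (1.75, adjusted p = 0.039) and gave 1.43 with NP (adjusted p = 0.112).

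The Myb paralogue Mybl2, which is active in dividing cells, rose with BPA (1.86 ± 0.17, adjusted p = 0.000278) and NP (1.35 ± 0.17, adjusted p = 0.00157) and fell in control day8 relative to control day0 (-2.04, adjusted p = 1.84e-05). Mybl1 rose with BPA (0.98, adjusted p = 0.0173), a call lost without replicate 1 or 3 of BPA day8 or replicate 1 or 2 of control day8 (adjusted p up to 0.0602). Since Myb is known from blood progenitors, their markers are given beside it. The list of 13 genes, erythroid ones included, had summed signals of 631 to 982 in BPA day8, 488 to 922 in NP day8, 1459 to 1926 in control day8 and 279 to 388 in control day0, which is not the order of Myb. The sum holds the globins Hbb-bh1 and Hba-x, which averaged 9.46 and 7.43 in control day8. Single markers differed, and Kit averaged 8.23 in BPA day8, 8.31 in NP day8, 7.69 in control day8 and 6.93 in control day0. Among the 11 tested, 0 rose and 2 fell with BPA (Lmo2 by 1.91 and Cd34 by 1.66 on the log2 scale), which was 1 without replicate 1 or 2 of control day8 or replicate 1 or 3 of BPA day8. With NP 0 rose and 3 fell, which was 0 without control day8 replicate 1 or 2. Like Myb, each of the 8 pluripotency markers had its highest group mean in control day0 and its lowest in control day8, but Tdgf1 and Klf4 averaged more in NP day8 (11.09 and 9.51) than in BPA day8 (10.87 and 9.46), unlike Myb. The part of blood cells or of pluripotent cells in the level of Myb was not tested.

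Gper1, the membrane estrogen receptor, was close to background. Its brighter probe set read 1.32, 3.88 and 0.63 in BPA day8, 2.69, 4.54 and 1.54 in NP day8, 3, 0.37 and 4.63 in control day8, and 1, 3.9 and 3.69 in control day0. Each group spread over several log2 units, 7 of 12 values were at or under the background of 3.41, and the groups overlapped throughout. The other probe set was at or under background on 11 of 12 arrays. With no filter on low values Gper1 had adjusted p of 0.797 with BPA, 0.948 with NP and 0.94 between the control days. A level this low gives no measure of a change in either direction.

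Against control day0, 3 of the 5 tested genes rose and 1 fell in BPA day8, where 21.7% of all genes rose, 11.9% fell and 33.6% were called. In NP day8 3 rose and 2 fell, where 20.2% of all genes rose, 11.9% fell and 32.1% were called. The 4 genes called between the control days can be placed on a scale on which the control day0 mean is 0% and the control day8 mean is 100%. The scale uses the main probe set of each gene, and the other probe sets were not placed on it. Igfbp4 lay at 40.8% in BPA day8 (arrays 37.5% to 45.4%) and at 42.8% in NP day8 (30.9% to 59.1%). Greb1 lay at 40.5% in BPA day8 (15.8% to 55.6%) and at 59.1% in NP day8 (44.3% to 75.5%). Myb lay at 14.3% in BPA day8 (6.67% to 25.2%) and at 37.8% in NP day8 (13% to 52.2%). The group means of these 3 genes thus lay between 14.3% and 59.1%, and no array with an agent reached 100%. Nrip1 lay farther along, at 75.6% in BPA day8 (70.4% to 79.3%) and at 73.6% in NP day8 (42.7% to 94.7%). For all 4 genes NP day8 replicate 3 was the NP array nearest to control day0 and NP day8 replicate 1 the farthest. These arrays also had the highest and the lowest summed pluripotency signal of the NP group, 21958 and 16466. The BPA arrays were mixed. BPA day8 replicate 3 was nearest to control day0 for Igfbp4, Greb1 and Nrip1 (37.5%, 15.8% and 70.4%) but had the lowest sum of its group, 20001. For Myb the nearest was BPA day8 replicate 2 (6.67%), which had the highest sum, 20884. A link between the sums and the 4 genes was not tested.

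The nuclear estrogen receptors were near background. Esr1, the main nuclear receptor, averaged 3.12 ± 1.01 in BPA day8, 2.33 ± 2.1 in NP day8, 2.38 ± 0.87 in control day8 and 3.46 ± 0.24 in control day0 (SD, n = 3 each), with 7 of 12 arrays at or under background. Levels this low give no measure of a change of Esr1. Esr2, the second nuclear receptor, did not pass the filter and was at or under background on 10 of 12 arrays. The estrogen-related receptors bind similar DNA but not estrogen. Esrra gave 0.12 with BPA (adjusted p = 0.737) and -0.29 with NP (adjusted p = 0.437). Esrrg was near background too, with averages of 3.23 in BPA day8, 3.96 in NP day8 and 3.34 in control day8.

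Esrrb, an orphan receptor of the pluripotency network, was the exception. It averaged 7.83 ± 0.2 in BPA day8, 7.57 ± 0.18 in NP day8, 5.67 ± 0.43 in control day8 and 9.03 ± 0.07 in control day0 (SD, n = 3 each). It rose with BPA (2.15 ± 0.2, adjusted p = 0.000326) and with NP (1.89 ± 0.2, adjusted p = 0.000922), and fell in control day8 relative to control day0 (-3.35 ± 0.2, adjusted p = 5.56e-06). Of the 4 tested receptors, 1 rose and 0 fell with each agent. Esrrb is also 1 of the 8 pluripotency markers, where Pou5f1, the central pluripotency factor, rose by 2.92 with BPA (adjusted p = 0.000998) and by 2.83 with NP (adjusted p = 0.00196). Col1a1, a fibroblast collagen, fell by 2.46 with BPA (-2.46, adjusted p = 0.00151) and by 3.18 with NP (-3.18, adjusted p = 0.00103).

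Among 12 tested coregulators of the estrogen receptors, 2 rose and 0 fell with BPA, and 1 rose and 0 fell with NP. These shares were no higher than the 22.2% and 14.2% of all genes called. Ncoa3, a p160 coactivator, rose by 0.92 with BPA (adjusted p = 0.00446). With NP it rose by 0.73 (adjusted p = 0.0201), a call lost without control day8 replicate 1 or NP day8 replicate 2 (adjusted p up to 0.0778) and with its probe set of largest spread (adjusted p = 0.0614). Pelp1, a scaffold coactivator, rose by 0.63 with BPA (adjusted p = 0.00359), and its probe set with the largest spread gave 0.53 (adjusted p = 0.321). The list's median change was -0.07 with BPA and 0 with NP, close to the 0.04 and 0.01 of all genes. In control day8 against control day0, 2 of the 12 rose and 4 fell, where 48.7% of all genes were called. Ncoa2, another p160 coactivator, was up by 1.2 (adjusted p = 0.000196). That rise depended on the probe set, since the mean of the Ncoa2 probe sets gave 0.56 (adjusted p = 0.212) and the one with the largest spread 0.3 (adjusted p = 0.843).

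Other genes known as estrogen targets in uterus, breast or pituitary formed a list of 32, of which 27 were tested. With BPA 3 rose and 2 fell, and with NP 3 rose and 0 fell, so 22 and 24 of the 27 did not pass. The shares called, 5 and 3 of 27, were no higher than the 22.2% and 14.2% of all genes. Pgr, the progesterone receptor and a classical target, averaged 4.38 in BPA day8, 4.74 in NP day8, 4.17 in control day8 and 3.05 in control day0, and its changes against control day8 were 0.22 (adjusted p = 0.814) and 0.57 (adjusted p = 0.534). The median change of the list was -0.12 with BPA and -0.05 with NP.

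The 3 that rose with both agents were Hspb1, Inhbb and Ramp3. Hspb1, a small heat shock protein, rose by 1.41 ± 0.19 with BPA (adjusted p = 0.0011) and by 1.15 ± 0.19 with NP (adjusted p = 0.005). Inhbb, an activin and inhibin subunit, rose by 1.45 ± 0.31 with BPA (adjusted p = 0.0103) and by 1.84 ± 0.31 with NP (adjusted p = 0.00606), but the mean of its probe sets gave -0.26 with BPA (adjusted p = 0.775) and 0.57 with NP (adjusted p = 0.538). Both genes kept their calls with every array left out in turn, but in a fit of NP day8 and control day8 alone their NP calls were lost (adjusted p = 0.0535 for Hspb1 and 0.0567 for Inhbb). Ramp3, a partner of the calcitonin receptor-like receptor, rose by 2.05 ± 0.61 with BPA (adjusted p = 0.0396) and by 2.31 ± 0.61 with NP (adjusted p = 0.0354). Its call with BPA was lost without any one array except control day8 replicate 3 (adjusted p up to 0.105), and that with NP without control day8 replicate 2 or any BPA day8 or NP day8 array (adjusted p up to 0.0917). The size of the Ramp3 change depended on the control day8 arrays, which spread from 1.87 to 4.99, and without control day8 replicate 1 it was 1.22 with BPA and 1.48 with NP. All 3 genes fell in control day8 relative to control day0, Inhbb by 3.9 on the log2 scale.

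The 2 that fell with BPA were Bcl2 and Igf1. Bcl2, an inhibitor of apoptosis, fell by 1.96 ± 0.41 (adjusted p = 0.00918), although the mean of its probe sets gave -1.3 (adjusted p = 0.162). Igf1, the ligand that IGFBP4 binds, averaged 3.34 in BPA day8, under the background of 3.41, and 5.81 in control day8. It passed the test as lower with BPA (adjusted p = 0.0405), but at that level the size of the decrease is not measured, and the call was lost without any one array except control day0 replicate 1 or 3 (adjusted p up to 0.275). The number of list genes called without 1 array was 3 to 4 with BPA and 2 to 5 with NP. Over differentiation without an agent 10 rose and 4 fell, where 48.7% of all genes were called. S100g, a calcium-binding protein, averaged 9.15 in control day8 and was under background on all 3 control day0 arrays (adjusted p = 5.47e-06).

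**Figure D4:**
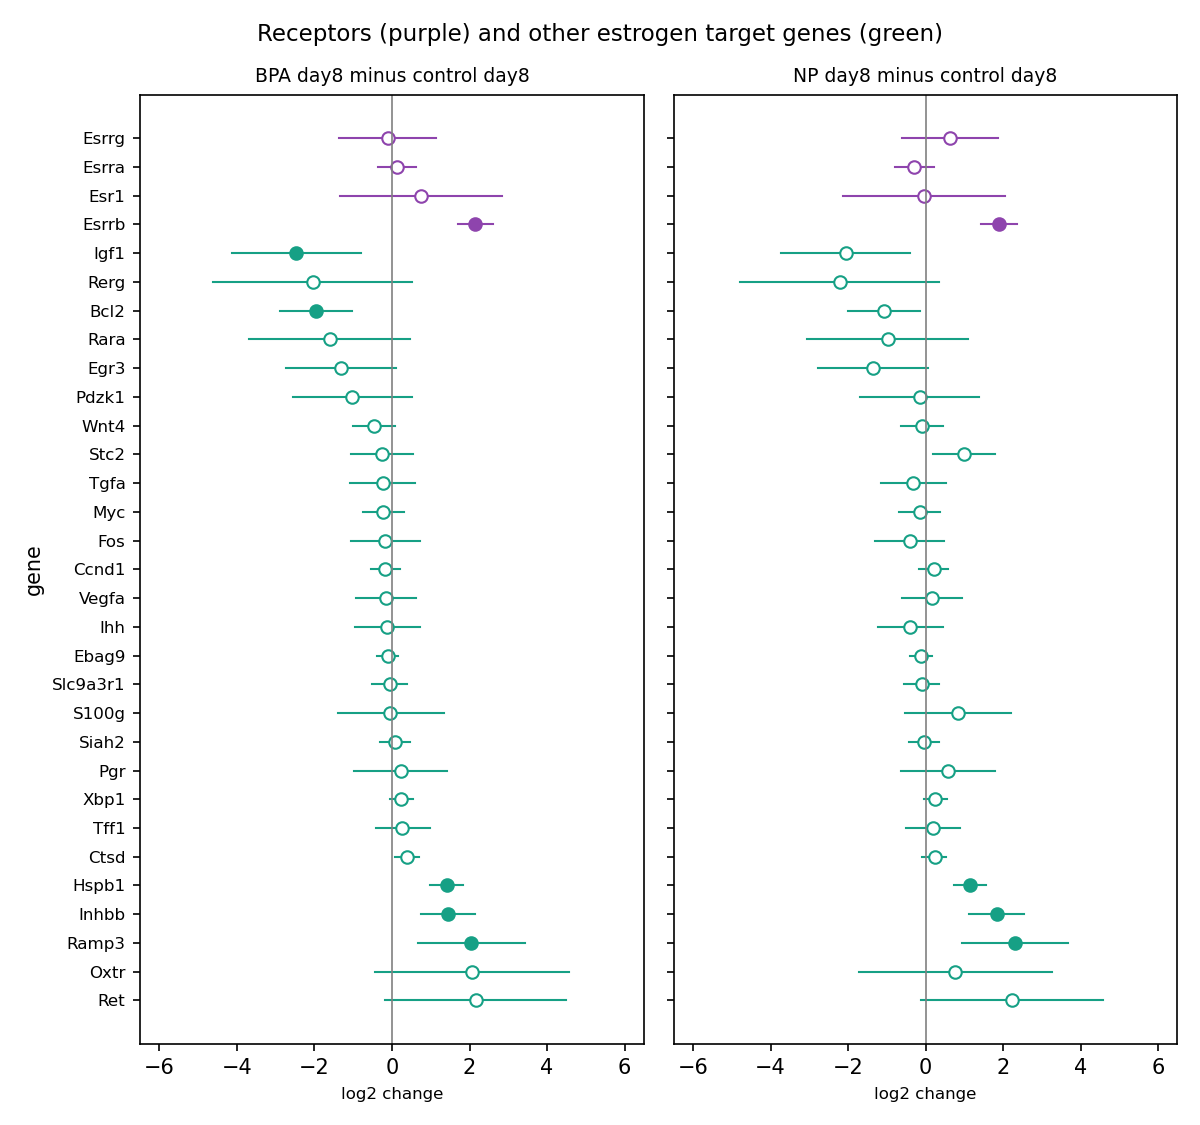
Log2 change against control day8 of the 4 tested receptors (purple) and the 27 other estrogen target genes tested (green), for BPA on the left and NP on the right. Lines are 95% intervals from limma and filled points have an adjusted p under 0.05 over all genes tested. Esrrb, Hspb1, Inhbb and Ramp3 lie right of 0 and are filled in both panels, Bcl2 and Igf1 lie left of 0 and are filled in the BPA panel, and the others are open in both.

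Of 7 tested genes of estrogen synthesis and inactivation, 0 rose and 2 fell with each agent. Cyp1b1, which hydroxylates estrogens, fell with BPA (-0.96, adjusted p = 0.0103). That call was lost with the mean of its probe sets (-0.84, adjusted p = 0.0655), with its probe set of largest spread (-0.72, adjusted p = 0.401) and in a fit of the 2 groups alone (adjusted p = 0.0569). The decrease of Cyp1b1 with NP (-0.72, adjusted p = 0.0466) was lost in 7 such settings, -0.22 being its value with the probe set of largest spread (adjusted p = 0.851), and without any one array except control day8 replicate 3 (adjusted p up to 0.13). Hsd17b7, a reductase of estrone and of cholesterol synthesis, fell by 0.71 with BPA (-0.71, adjusted p = 0.0429) and by 0.86 with NP (-0.86, adjusted p = 0.0302). Both Hsd17b7 calls were lost without control day8 replicate 1 or 2 or NP day8 replicate 2 or 3, and the BPA call also without control day0 replicate 1, control day8 replicate 3 or BPA day8 replicate 1 or 3, with adjusted p up to 0.137 with BPA and 0.107 with NP. Both were also lost with median centring, with no filter on low values and with the replicate block (adjusted p of 0.0561 to 0.0777). The NP call was lost with the Hsd17b7 probe set of largest spread too (-0.49, adjusted p = 0.151). In a fit of the 2 groups alone and in the fit over all probe sets the BPA call was lost (adjusted p = 0.0686 and 0.055). The median change was -0.26 with BPA and -0.04 with NP. In control day8 against control day0, 3 rose and 2 fell, and Hsd17b2, which inactivates estradiol, averaged 4.7 in control day8 and was under background on all 3 control day0 arrays (adjusted p = 6.36e-05).

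In the IGF system around Igfbp4, all 12 listed genes were tested, and 1 rose and 4 fell with each agent. Igf2r, which clears IGF2, fell with BPA (-1.68 ± 0.27, adjusted p = 0.00269) and with NP (-1.51 ± 0.27, adjusted p = 0.00742), the NP call being lost in a fit of the 2 groups alone (adjusted p = 0.0582). The riser with both agents was Igfbp2, by 0.48 with BPA and by 0.66 with NP. Igfbp5, another binding protein, fell with BPA (-2.85 ± 0.57, adjusted p = 0.00694) and with NP (-2.1 ± 0.57, adjusted p = 0.0379), the NP call being lost without replicate 1 of control day0, replicates 1 or 2 of control day8 and of BPA day8, or replicates 2 or 3 of NP day8 (adjusted p up to 0.118). It was also lost in 6 other settings, with -1.36 for the mean of its probe sets (adjusted p = 0.13). Igf2, the fetal growth factor, gave -1.05 with BPA (adjusted p = 0.0568). With NP it fell by 1.42 (adjusted p = 0.0262), a call lost without any control day8 array or without NP day8 replicate 2 or 3 (adjusted p up to 0.0858), with the mean of its probe sets (adjusted p = 0.107), in a fit of the 2 groups alone (0.087) and with the replicate block (0.0554). Pappa, the protease that cleaves IGFBP4, averaged 3.46 in BPA day8, 3.17 in NP day8 and 5.46 in control day8, and its differences did not pass the test (adjusted p = 0.133 with BPA and 0.118 with NP).

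The list's median change was -1.08 with BPA and -0.86 with NP. Without 1 array, 3 to 6 of the 12 genes were called with BPA and 1 to 6 with NP, the 1 being without NP day8 replicate 2. In control day8 against control day0, 6 rose and 1 fell, with Igfbp5 up by 6.38 and Igf2 by 5.32 (adjusted p = 2.61e-05 and 7.23e-06), while Igfbp1 averaged 7.8 in control day8 and was under background on all 3 control day0 arrays (adjusted p = 0.000151). Igf2r, Igfbp5 and Igf1r, also on the list, thus passed the test in the same directions as Igfbp4 in all 3 comparisons with control day8. The NP call of Igfbp5 depended on single arrays and on the setting. The group means of Igf1r were 7.43 in BPA day8, 7.6 in NP day8, 8.55 in control day8 and 6.95 in control day0. How far the calls of Igf1r depended on single arrays or on the setting is not given here.

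Genes with the most similar pattern over the 12 arrays were ranked by Pearson correlation among the 13067 tested genes, as a description with no test, since all 12 arrays and their groups are shared. For Igfbp4 they were Arhgap29 (r = 0.99), Dlk1 (r = 0.989) and Slc25a4 (r = 0.985). For Greb1 they were Zfp521 (r = 0.985), Ssbp2 (r = 0.984) and Ror1 (r = 0.983). For Nrip1 they were Pias1 (r = 0.988), Mrtfb (r = 0.986) and Dmrta2 (r = 0.983). For Myb the 3 included the pluripotency marker Zfp42 (r = 0.97), beside Lrrc34 (r = 0.972) and Morc3 (r = 0.97). Cxcl12 was most like Cd302 (r = 0.975), F2r (r = 0.973) and Gpx8 (r = 0.969).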

How the data were processed

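RNA was hybridised to 12 Affymetrix arrays, 3 in each of 4 groups, and the groups were taken from the sample titles. The authors deposited log2 signals for 45101 probe sets, made with MAS5 per the submitters' processing notes. The MAS5 version and detection calls are not given in the sources used here. The trimmed mean signal was 100 on every array. The number of arrays limits the precision. Probe sets were named with the platform's gene table (34958 with 1 gene, 932 with several, 9211 not listed). Genomic positions are those of RefSeq promoter windows, since the build behind the array annotation is not named.

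No pseudocount or further scaling was applied. After removal of 64 control probe sets, the brightest 60% by mean were kept (27023, lowest mean 2.79). The brightest probe set stood for its gene, giving 13067 genes. A mean per group was fitted with limma 3.58.1 in R 4.3.3 over all 12 arrays (8 residual and 1.57 prior degrees of freedom), without a replicate block. Tests were 2-sided, with Benjamini-Hochberg adjustment over all genes in each of 6 comparisons and a threshold of 0.05. Intervals are 95%. The fit was tested on simulated data. Figures were drawn with matplotlib 3.10.9.

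The 6 genes and all gene lists were chosen with earlier results of these data known. All 6 were named, together with the called genes of largest change in each list of the estrogen, IGF and CXCL12 systems (up to 3) and a set of receptors and markers, and each member's 3 most correlated genes. Alternatives were quantile or median scaling, a pseudocount of 16, keeping 40% or all probe sets, other choices of probe set, trend and robust moderation, array weights, fits of only the groups compared, a replicate block, and leaving out each array. A fit over all probe sets was added after the data were seen. Arrays that share a replicate number did not deviate together (18 pairs, correlations of -0.01 to 0.08, 0 over 0.1), so the numbers were not treated as pairs. No 2 arrays were duplicates, the highest correlation between arrays being 0.9515.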

Additional observations from a re-analysis of the deposited data

How the results depend on the processing

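Of 720 changes of the 5 tested genes under an alternative, 668 kept their direction and their side of the threshold, 40 kept the direction and lost the call, 2 gained it and 10 turned in sign. Both gains were Cxcl12 in control day8 over control day0, 1.65 with the mean of its probe sets and 2.93 with its probe set of largest spread, against 0.36. With the probe set of largest spread, Cxcl12 turned to 0.87 in BPA day8 and 1.26 in NP day8 against control day0, Nrip1 to 0.88 with BPA and 0.95 with NP against control day8, and Nrip1 to 0.07 in NP day8 minus BPA day8. The Nrip1 probe set chosen there lies near background. With the mean of the probe sets, Cxcl12 was 0.01 in NP day8 against control day0, and Nrip1 was 0.08 in NP day8 minus BPA day8. That last difference of Nrip1 was 0.04 with array weights and -0.26 to 0.28 without 1 array, positive without NP day8 replicate 3, and that of Igfbp4 was -0.24 to 0.31 without 1 array, negative without NP day8 replicate 1. Inhbb with BPA turned to -0.26 with the mean of its probe sets. The number of members called was 2 for NP day8 against control day8 in a fit of only these groups and 2 with the probe set of largest spread, against 4. It was 2 for BPA day8 against control day0 with the largest spread, against 4, and 3 for NP day8 against control day0 with the largest spread or the mean of the probe sets, against 5. Without 1 array, members called were 4 in every fit for BPA day8 against control day8 and for control day8 against control day0, 3 to 4 for NP day8 against control day8, 3 to 4 for BPA day8 against control day0, 4 to 5 for NP day8 against control day0, and 0 for NP day8 against BPA day8. Over all genes, control day8 against control day0 had 6365 calls, and 5515 to 6268 without 1 array. Against control day0, BPA day8 had 4394 calls and NP day8 had 4197, with 3333 to 4466 and 3111 to 4334 without 1 array. BPA day8 against control day8 had 2906 calls, 1804 with the largest spread and 1820 to 2934 without 1 array, the 1820 being without control day8 replicate 1. NP day8 against control day8 had 1852 calls, 1182 with no filter, 645 with only these groups, 927 with the largest spread and 812 to 1870 without 1 array, and NP day8 against BPA day8 had 1 call and 0 to 4 under the alternatives. The cause was not tested. With the replicate block, members called were 4, 3 and 4 for BPA day8 against control day8, NP day8 against control day8 and control day8 against control day0. The block changed no other call among these than Greb1 with NP (adjusted p = 0.0541). The labels do not say whether the replicate numbers pair the arrays. The median change of all genes in control day8 against control day0 was 0.12 as deposited and 0.01 after quantile or median scaling, and no direction of the 5 tested genes turned under either. Values near the background of 3.41, Gper1 and Esr2 among them, give no measure of a change.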

Other observations

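Markers of other cell types that differentiate in embryoid bodies gave the surroundings of these genes. Of 7 cardiac muscle markers, 5 fell and 0 rose with BPA and with NP, and Hand2, a heart transcription factor, fell by 4.72 ± 0.73 with BPA (adjusted p = 0.00229) and by 4.19 ± 0.73 with NP (adjusted p = 0.00682). The cardiac count was 4 to 6 with BPA and 2 to 6 with NP when 1 array was left out, the 2 being without any control day8 array or NP day8 replicate 2 or 3. Their summed signals were 213 to 565 in BPA day8, 262 to 1633 in NP day8, 3634 to 5856 in control day8 and 111 to 124 in control day0.

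Of 6 tested endothelial markers, 4 fell with BPA and 3 with NP, and the receptor gene Kdr fell by 2.94 ± 0.44 with BPA (adjusted p = 0.00203) and by 2.54 ± 0.44 with NP (adjusted p = 0.00677). When 1 array was left out, the endothelial count was 3 to 4 with BPA and 3 in every fit with NP. It was 3 with BPA without any control day8 array or NP day8 replicate 1 or 3. Emcn, among the 6, averaged 5.39 in control day8 and 0.57 in BPA day8. That is under the background of 3.41, and 7 of its 12 values were at or under background, so the size of its change is not measured. Of 9 visceral endoderm markers, 1 fell with each agent, Gata6, by 1.94 ± 0.2 with BPA (adjusted p = 0.000405) and by 1.51 ± 0.2 with NP (adjusted p = 0.00191). The summed visceral endoderm signals, 7071 to 10088 in BPA day8, 11813 to 13042 in NP day8 and 7089 to 13763 in control day8, overlapped between each agent and control day8 and were 116 to 143 in control day0.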
